A study of Rattus norvegicus with 6 samples.

Results

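Rat chromosome 11 held 3855 of the 129499 open chromatin regions counted in a DNase I sequencing study of microglia in culture. Microglia are the macrophages that live in the brain. All regions that the count table places on chromosome 11 were taken as members. The chromosome was singled out because its regions opened with lipopolysaccharide more often than those of other chromosomes, so every lipopolysaccharide value below is a description and carries no test. The comparisons with glioma-conditioned medium were not used to choose it and are tested, although they share the untreated or the lipopolysaccharide libraries with that choice.

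Microglia were grown from the cerebral cortex of 1-day-old Wistar rat pups, with 10 to 15 pups pooled per culture, and were shaken off after 2 weeks and rested for 48 h. Per the labels, 2 independent cultures were prepared for each of 3 groups. One group was left untreated. Another was given lipopolysaccharide (LPS) from Salmonella enteritidis at 100 ng/mL for 6 h, and the last was given medium conditioned by the rat glioma line C6 (GCM) for 6 h. All cultures were neonatal cells kept in serum, and each value is an average over pooled pups.

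The enzyme DNase I reaches DNA that nucleosomes leave free, so cut ends pile up at active promoters and enhancers. LPS is a bacterial cell wall component that signals through Toll-like receptor 4 to NF-kB and then to interferon-driven factors, which bind enhancers of inflammatory genes in microglia and other macrophages. Glioma cells release factors that push microglia towards a state that helps tumour invasion. Rat chromosome 11 carries genes of these responses, among them Nfkbiz, which encodes an NF-kB cofactor, Cd80 and Cd86 for co-stimulatory ligands of T cells, Ifnar1, Ifnar2 and Ifngr2 for interferon receptor subunits, Il10rb for a subunit of the interleukin-10 receptor, and Mx1 and Mx2 for interferon-induced antiviral proteins. A list of 25 genes was drawn up as genes of chromosome 11, not all of them of these responses. RefSeq placed all 25 there in build GRCr8. This does not show whether the chromosome is rich in response genes. The counted regions have positions in build rn5, so they are named by position, were not tied to genes, and are shown without sequence. For the same reason the labelled cell type was not checked against its marker genes.

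The regions of chromosome 11 ran from base 782042 to base 93469282 of rn5, a span of 92.7 Mb. They were 1 to 2821 bp wide, with a median of 371 bp against 370.0 bp over all chromosomes, and together covered 1.89 Mb or 2.04% of the span. The median gap between neighbours was 4.88 kb, and the largest, of 4.22 Mb, lay between bases 3643103 and 7858804. Hotspots are stretches that the authors called as enriched for cuts in each library, and 2054 of the 3855 regions (53.3%, against 53.7% of all regions) overlapped one in all 6 lists. All 3855 had a hotspot in both libraries of at least 1 group, so a region open in 1 group only could enter the set through that group.

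Levels are given as CPM, the count of a region divided by the library's sum over all counted regions, after TMM scaling of that sum, and put on a common scale of 1000000. The 6 libraries held 7.14 M to 12.4 M counts in regions over all chromosomes, and 10.0% to 13.7% of a library's reads fell in regions, with both ends of that range in the GCM group. Chromosome 11 regions had 324193 and 207080 counts in the untreated group, 294913 and 366152 in the LPS group, and 245348 and 357970 in the GCM group. The median count per region on the chromosome was lowest in untreated replicate 2, at 35, and highest in GCM replicate 2, at 64. A region was tested where its counts passed the edgeR filter with a minimum count of 10, which left 3753. The other 102 were narrow, with a median width of 43.5 bp, and held no more than 15 counts in any library.

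Of the counts in regions, chromosome 11 took 2.92% and 2.90% in untreated cultures. The share was 3.00% and 2.95% in the LPS group and 2.97% and 2.97% in the GCM group. All 4 stimulated libraries lay above both untreated ones. An exact permutation test of 2 against 2 libraries cannot give a p below 0.333, so none is given. The median level of a region was 5.01 and 5.05 CPM untreated, 5.38 and 5.22 CPM with LPS, and 5.16 and 5.41 CPM with GCM. Per kb of region the median was 13.1 CPM in untreated cultures, close to the 13.6 CPM of all regions. In these pooled cells, a larger share of cells with a region open cannot be told apart from more cutting per cell.

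Setting LPS against untreated cultures shows where chromatin opens or closes in inflammatory activation. On chromosome 11, 324 tested regions were called more accessible with LPS (8.63%, against 6.71% of all regions) and 88 less accessible (2.34%, against 3.14%). These are the calls that chose the chromosome, and nothing is read from the difference. Its share of opened regions came first among 21 chromosomes, ahead of chromosome 17 at 8.22%, with the lowest at 3.86% on chromosome 12. Its share of closed regions came at place 20 of 21. More than 2-fold differences among the called regions numbered 117 upward and 13 downward, of 3753 tested regions. Over all chromosomes they numbered 2977 and 595 of 126284. The median log2 fold change over all tested regions of the chromosome was 0.04, with 54.5% above 0. The balance of calls moved with the scaling. Of the called regions, 78.6% were higher with LPS as given above. The share was 65.1% (263 higher and 141 lower) when libraries were scaled within chromosome 11. It was 95.4% (230 higher and 11 lower) with whole-library totals. Over all chromosomes the calls moved likewise, with 8470 higher and 3963 lower, 7135 and 5297, and 6289 and 686 in that order.

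**Figure D1:**
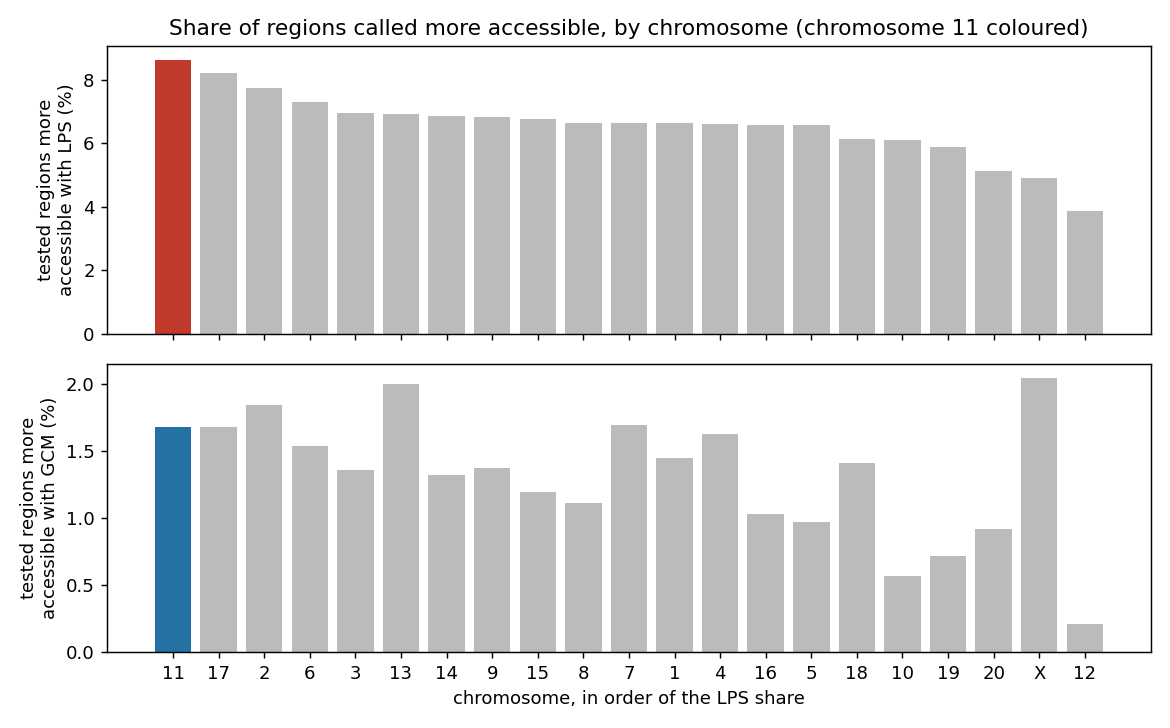
Share of tested regions called more accessible with LPS (upper panel) and with GCM (lower panel) on each of 21 chromosomes, in percent, ordered by the LPS share, with chromosome 11 in colour. Chromosome 11 was chosen for its place in the upper panel (8.63%), and in the lower panel, at 1.68%, it comes at place 6.

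Each library showed the LPS calls. In the 324 opened regions the median level was 3.40 and 3.22 CPM untreated and 6.60 and 6.36 CPM with LPS. Over the 4 pairs of an LPS and an untreated library, the median log2 ratio of these regions ran from 0.79 to 0.95. In 323 of the 324 both LPS libraries lay above both untreated ones. Over all tested regions of the chromosome this held for 33.4% (27.9% over all chromosomes). The calls were made on these same libraries and favour such separation, also in the closed regions below, so it adds no support. With GCM the same 324 regions had medians of 4.18 and 4.34 CPM, between the other groups. The 88 closed regions had medians of 6.72 and 6.66 CPM untreated, 3.61 and 3.67 CPM with LPS and 5.47 and 6.47 CPM with GCM, and in all 88 the LPS and untreated libraries did not overlap.

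Per kb of region, the opened regions had a low untreated level, which the call itself and the entry of regions through the group where they are high both favour. They stood at a median of 8.33 CPM in untreated cultures, against 13.4 CPM in the 3295 chromosome 11 regions called for neither stimulus. No hotspot was called in either untreated library at 151 (46.6%) of them, against 11.4% of the regions not called, while 323 had one in both LPS libraries. These hotspot counts describe the called regions and support nothing further. Of the closed regions, chosen by the call in the same way, 33 of 88 (37.5%) had no hotspot in either LPS library.

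Leaving out an untreated or LPS library leaves that group without a replicate. It lowered the number of regions called higher with LPS over all chromosomes, so the fall is not particular to chromosome 11. On chromosome 11 the number fell from 324. It was 126 when untreated replicate 1 was dropped and 139 when untreated replicate 2 was. It was 204 when LPS replicate 1 was dropped and 203 when LPS replicate 2 was. DESeq2 called far fewer regions, 27 higher on the chromosome (0.618% of all regions) and 0 lower (0.0573%).

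The 10 opened regions with the smallest LPS p-values lay between 2.66 Mb and 91.4 Mb, with a pair in the window from 39 to 40 Mb and another in the window from 81 to 82 Mb. At chr11:70118675-70119072 the level was 1.61 and 2.10 CPM untreated, 7.62 and 8.24 CPM with LPS and 1.84 and 2.70 CPM with GCM. The LPS libraries stood apart from the other 4, and a hotspot was called in these 2 libraries only. The difference between LPS and untreated was 2.13 ± 0.236 (log2 ± SE), or 4.39-fold. At chr11:39795972-39796265 the level was 1.70 and 1.96 CPM untreated, 5.99 and 6.94 CPM with LPS and 1.60 and 1.97 CPM with GCM. Here too the GCM values lay within or beside the untreated ones, and hotspots were called in the LPS libraries only. Its partner in the same window, chr11:39729463-39729991, had 4.30 and 2.80 CPM untreated, 9.65 and 10.6 CPM with LPS and 4.79 and 4.01 CPM with GCM.

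At chr11:81248061-81248666 the level was 4.92 and 3.92 CPM untreated, 11.4 and 14.1 CPM with LPS and 5.16 and 4.51 CPM with GCM. At chr11:81103990-81104637 it was 4.57 and 5.33 CPM untreated, 10.7 and 11.995 CPM with LPS and 4.92 and 4.10 CPM with GCM. In both regions the LPS libraries were the highest. GCM overlapped the untreated range in both, with GCM replicate 1 just above it in the first and GCM replicate 2 below it in the second. Of these leading opened regions, the one nearest to the start of the chromosome was chr11:2655401-2655755. Its level was 1.52 and 1.26 CPM untreated, 5.89 and 6.20 CPM with LPS, and 3.56 and 2.21 CPM with GCM. Both GCM libraries lay between the other groups there, and also at chr11:78083323-78084041 and chr11:91408870-91409501.

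The 10 regions were more accessible with LPS than untreated by 0.96 to 2.13 on the log2 scale, and 6 had no hotspot in either untreated library. Against untreated cultures, none of the 10 passed the test with GCM (log2 fold changes from -0.14 to 0.95, adjusted p from 0.121 to 0.992, edgeR). All 10 were less accessible with GCM than with LPS, by -1.83 ± 0.229 at chr11:39795972-39796265 (log2 ± SE, edgeR adjusted p = 7.4e-07, n = 2 libraries in each group) and by -0.86 to -1.75 at the others (adjusted p up to 0.000453, edgeR). Regions picked by a small LPS p tend to be high in the LPS libraries, which favours this difference. The LPS call of each of the 10 was kept in every alternative that gave a value for it.

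The 5 closed regions with the smallest LPS p-values lay between 34.8 and 91.1 Mb, and a pair of them in the window from 86 to 87 Mb. At chr11:86117164-86117531 the level was 7.79 and 5.89 CPM untreated, 3.35 and 3.67 CPM with LPS and 7.74 and 6.23 CPM with GCM. Its neighbour chr11:86111009-86111575 had 9.40 and 12.8 CPM untreated, 6.09 and 6.61 CPM with LPS and 9.71 and 10.2 CPM with GCM. At both regions the LPS libraries were the lowest and the GCM libraries overlapped the untreated ones. The 5 were 1.58-fold to 1.99-fold lower with LPS, and GCM exceeded LPS at all 5 (adjusted p from 0.00105 to 0.0486, edgeR). Picking them by low LPS libraries favours that difference. Without untreated replicate 1, and also without untreated replicate 2, 2 of these 5 calls were lost. All 5 were lost in DESeq2 and 4 with whole-library totals.

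**Figure D2:**
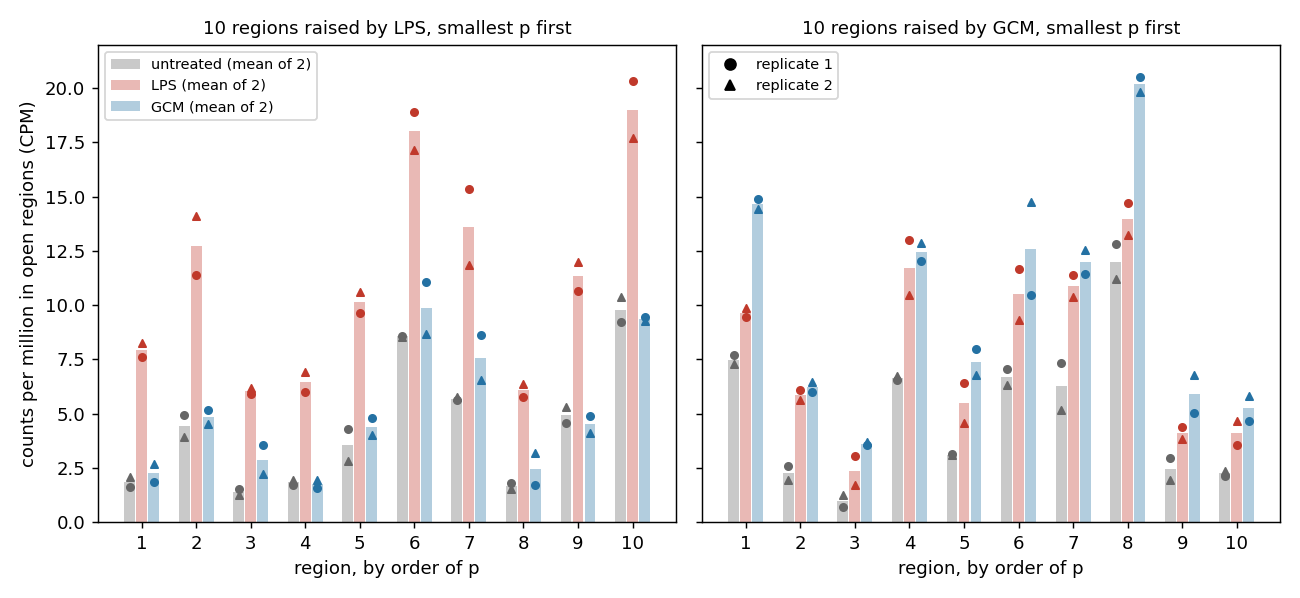
Level in CPM of the 10 chromosome 11 regions with the smallest p among those more accessible with LPS (left) and with GCM (right), each against untreated; bars are the mean of 2 libraries, circles replicate 1 and triangles replicate 2. On the left both LPS points lie above the untreated and the GCM points in each region, whereas on the right both GCM points are high and 7 of the 10 regions were also called more accessible with LPS.

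Setting GCM against untreated cultures shows which chromatin responds to factors from glioma cells. On chromosome 11, 63 regions rose with GCM (1.68%, against 1.34% of all regions) and 5 fell (0.133%, against 0.231%), at an adjusted p under 0.05 in edgeR. These shares were close to those of all regions, and the chromosome came at places 6 and 19 of 21. In the 63 risen regions the median level was 4.03 and 3.78 CPM untreated, 6.09 and 4.98 CPM with LPS and 6.64 and 7.37 CPM with GCM. All 63 had both GCM libraries above both untreated ones, which the call on these same libraries favours. That pattern was found in 29.3% of the tested regions of the chromosome and in 23.6% of all tested regions. The log2 fold changes of the 63 ran from 0.53 to 1.96 with a median of 0.88, and the 4 pairs of libraries gave medians of 0.71, 0.81, 0.96 and 0.98. No hotspot was called in either untreated library at 19 of the 63 (30.2%).

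The number of GCM calls depended on which libraries were in the fit. Leaving a library out also leaves its group without a replicate. The GCM libraries did not count alike, since most risen calls were lost without replicate 2 but not without replicate 1. Replicate 2 held 12.1 M counts in regions against 8.26 M in replicate 1. In the 63 risen regions its median log2 ratios to the untreated libraries were 0.96 and 0.98, against 0.71 and 0.81 for replicate 1. The reason for this difference was not tested. Without either untreated library, and without GCM replicate 2, the number of risen regions over all chromosomes fell too. Without untreated replicate 1 no region of chromosome 11 passed in either direction, without untreated replicate 2 there were 3 risen and 0 fallen, and without GCM replicate 2 there were 2 and 0. Without GCM replicate 1, 63 rose and 1 fell. At an unadjusted p under 0.05, edgeR gave 466 higher and 195 lower regions with all libraries, of 3753 tested. Over all chromosomes it gave 11655 and 7444 of 126284. DESeq2 called 0 in either direction on the chromosome (0.00232% of all regions were higher). Whole-library totals left 14 risen and 0 fallen (0.289% and 0.0507% of all regions).

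At chr11:69813431-69814023, the region with the smallest GCM p, the level was 7.70 and 7.29 CPM untreated, 9.45 and 9.87 CPM with LPS and 14.9 and 14.4 CPM with GCM. The 3 groups did not overlap, and the GCM libraries were the highest. It rose with GCM by 0.95 ± 0.150 (log2 ± SE, edgeR adjusted p = 0.000527, n = 2 libraries in each group) and was higher with GCM than with LPS by 0.59 ± 0.136 (edgeR adjusted p = 0.00341). A wide region at chr11:56014592-56015615 had the same order, with 12.8 and 11.2 CPM untreated, 14.7 and 13.2 CPM with LPS and 20.5 and 19.8 CPM with GCM. It rose by 0.73 ± 0.137 with GCM (edgeR adjusted p = 0.0035) and was 0.53 higher than with LPS on the log2 scale (edgeR adjusted p = 0.00579). These were the 2 of the 10 leading regions that differed between the stimuli.

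Most of the other leading GCM regions were high with both stimuli. At chr11:50747378-50747729 the level was 2.60 and 1.96 CPM untreated, 6.09 and 5.63 CPM with LPS and 6.02 and 6.47 CPM with GCM. The stimulated libraries overlapped each other and stood above the untreated ones, in which no hotspot was called. The GCM rise was 1.42 ± 0.233 (log2 ± SE, edgeR adjusted p = 0.00103, n = 2 libraries in each group). At chr11:19396714-19396989 the counts were small, 8 and 9 untreated, 30 and 21 with LPS and 29 and 45 with GCM, or 0.716 and 1.26, 3.05 and 1.71, and 3.56 and 3.69 CPM. The GCM rise there, of 1.96 ± 0.339 (edgeR adjusted p = 0.00153) or 3.88-fold, was the largest of the 10, whose folds began at 1.66. Of the 10, 7 were also called higher with LPS. All 10 lost their call in DESeq2 and without untreated replicate 1, 8 without untreated replicate 2, 8 without GCM replicate 2 and 4 with whole-library totals.

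The 5 regions that fell with GCM were scattered between 18.5 and 91.4 Mb, each in a 10 Mb segment of its own. At chr11:85556285-85557754 the level was 23.5 and 21.0 CPM untreated, 21.6 and 19.3 CPM with LPS and 14.1 and 15.7 CPM with GCM. The GCM libraries were below the other 4, by -0.57 ± 0.136 against untreated (log2 ± SE, edgeR adjusted p = 0.0209, n = 2 libraries in each group) and by -0.44 against LPS (edgeR adjusted p = 0.0310). The region with the fewest counts of the 5, chr11:71788478-71788664, had 6 and 13 counts in the GCM libraries. All 5 calls were lost in DESeq2, with whole-library totals and on leaving out any of the 4 untreated and GCM libraries.

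The calls of both contrasts crossed as follows. Because they share the untreated libraries, their overlap is given as a count and not as a result. Regions higher with both stimuli numbered 22, which is 6.79% of the 324 and 34.9% of the 63. Their median levels were 4.59 CPM untreated, 7.28 CPM with LPS and 8.37 CPM with GCM. The 302 regions called higher with LPS only had 3.26, 6.46 and 4.08 CPM in that order, and the 41 called higher with GCM only had 3.68, 4.55 and 6.55 CPM. No region was called lower with both.

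Set directly against LPS, GCM gave 162 more accessible regions on chromosome 11 (4.32%, against 3.75% of all regions) and 203 less accessible ones (5.41%, against 4.84%). With whole-library totals 28 were higher (0.761% of all regions) and 139 lower (3.54%). This changed the share of higher calls on the chromosome from 44.4% to 16.8%. DESeq2 called 2 higher (0.0984% of all regions) and 15 lower (0.538%). Of the 324 regions opened by LPS, 140 (43.2%) were lower with GCM than with LPS and none was higher, and of the 88 closed ones, 41 (46.6%) were higher with GCM and none was lower. The LPS libraries enter both contrasts, so picking by LPS favours these directions. Of the 41 regions called higher with GCM only, 17 were also higher than with LPS, and 0 of the 22 called with both stimuli differed between them.

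At chr11:58196118-58197039 the level was 9.04 and 10.1 CPM untreated, 6.70 and 5.79 CPM with LPS and 12.5 and 14.1 CPM with GCM. The groups did not overlap, with LPS lowest and GCM highest. The difference between the stimuli was 1.11 ± 0.153 (log2 ± SE, edgeR adjusted p = 3.56e-06, n = 2 libraries in each group), while the GCM difference from untreated, of 0.50, had an adjusted p of 0.0636 in edgeR. At chr11:57524296-57524647, less than 1 Mb away, the level was 3.31 and 4.62 CPM untreated, 1.63 and 1.71 CPM with LPS and 3.69 and 5.41 CPM with GCM. GCM and untreated overlapped there and LPS was low. A narrow region at chr11:53936183-53936398 was high in GCM alone, with 1.25 and 2.10 CPM untreated, 1.63 and 0.734 CPM with LPS and 2.58 and 5.57 CPM with GCM, and its GCM replicates differed by more than 2-fold. In the other direction, chr11:81012961-81013558 had 9.76 and 6.59 CPM untreated, 16.8 and 13.6 CPM with LPS and 7.37 and 5.49 CPM with GCM. It was lower with GCM than with LPS by -1.26 ± 0.166 (edgeR adjusted p = 1.61e-06), and GCM and untreated overlapped.

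Some prominent regions were not called. The region of highest level, chr11:66871408-66873811, had 59.0 and 54.0 CPM untreated, 49.97 and 60.8 CPM with LPS and 64.1 and 46.3 CPM with GCM, and all 3 groups overlapped. The widest, chr11:41111183-41114003, had 34.2 and 36.2 CPM untreated, 28.7 and 30.1 CPM with LPS and 29.0 and 33.3 CPM with GCM. Both stimulated groups were lower there, and the GCM difference did not pass (edgeR adjusted p = 0.596). The first region of the chromosome, chr11:782042-782527, had 7.61 and 7.43 CPM untreated, 6.60 and 4.90 CPM with LPS and 4.79 and 4.59 CPM with GCM, with an adjusted p of 0.0539 for GCM in edgeR.

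Along the chromosome, LPS calls were spread and GCM calls were unevenly placed. Open regions were unevenly placed, from 41 tested regions in the first 10 Mb of the sequence to 790.0 between 70 and 80 Mb. Every 10 Mb segment had regions opened by LPS, from 3 of 41 (7.32%) in the first to 23 of 144 (15.97%) between 20 and 30 Mb. The next highest LPS share was 14.5% (25 of 173) between 10 and 20 Mb, and the lowest was 7.22% (57 of 790) between 70 and 80 Mb. Regions closed by LPS were also found in every segment, between 2 and 17 in number.

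GCM calls were concentrated in 2 segments. Between 10 and 20 Mb, 17 of 173 tested regions (9.83%) rose with GCM, and between 50 and 60 Mb, 17 of 308 (5.52%). Together these segments held 34 of the 63 risen regions (54.0%) but 12.8% of the tested ones, and 58 of the 324 opened by LPS (17.9%). In contrast, 0 of 790 regions between 70 and 80 Mb and 1 of 673 between 30 and 40 Mb rose with GCM, where LPS opened 57 and 52. The segments were compared after their values were seen, and no test was made between them.

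Each library showed the shift of these segments, which their choice by GCM calls on the same libraries favours. The summed level of the regions between 10 and 20 Mb was 1003 and 992 CPM untreated, 1150.1 and 1065 CPM with LPS and 1153 and 1179 CPM with GCM. Between 50 and 60 Mb it was 1897 and 1883 CPM untreated, 2065 and 2028 CPM with LPS and 2185 and 2175 CPM with GCM. In both segments all 4 stimulated libraries exceeded both untreated ones. The 4 log2 ratios of a GCM to an untreated library lay between 0.20 and 0.25 in the first and between 0.20 and 0.21 in the second, against -0.05 to 0.01 between 30 and 40 Mb. For LPS the ratios were 0.09 to 0.21, 0.10 to 0.13 and -0.01 to 0.03. With GCM every ratio was also positive between 20 and 30 Mb (0.07 to 0.14), 40 and 50 Mb (0.041 to 0.047) and 60 and 70 Mb (0.029 to 0.072). In the remaining segments the pairs differed in direction.

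**Figure D3:**
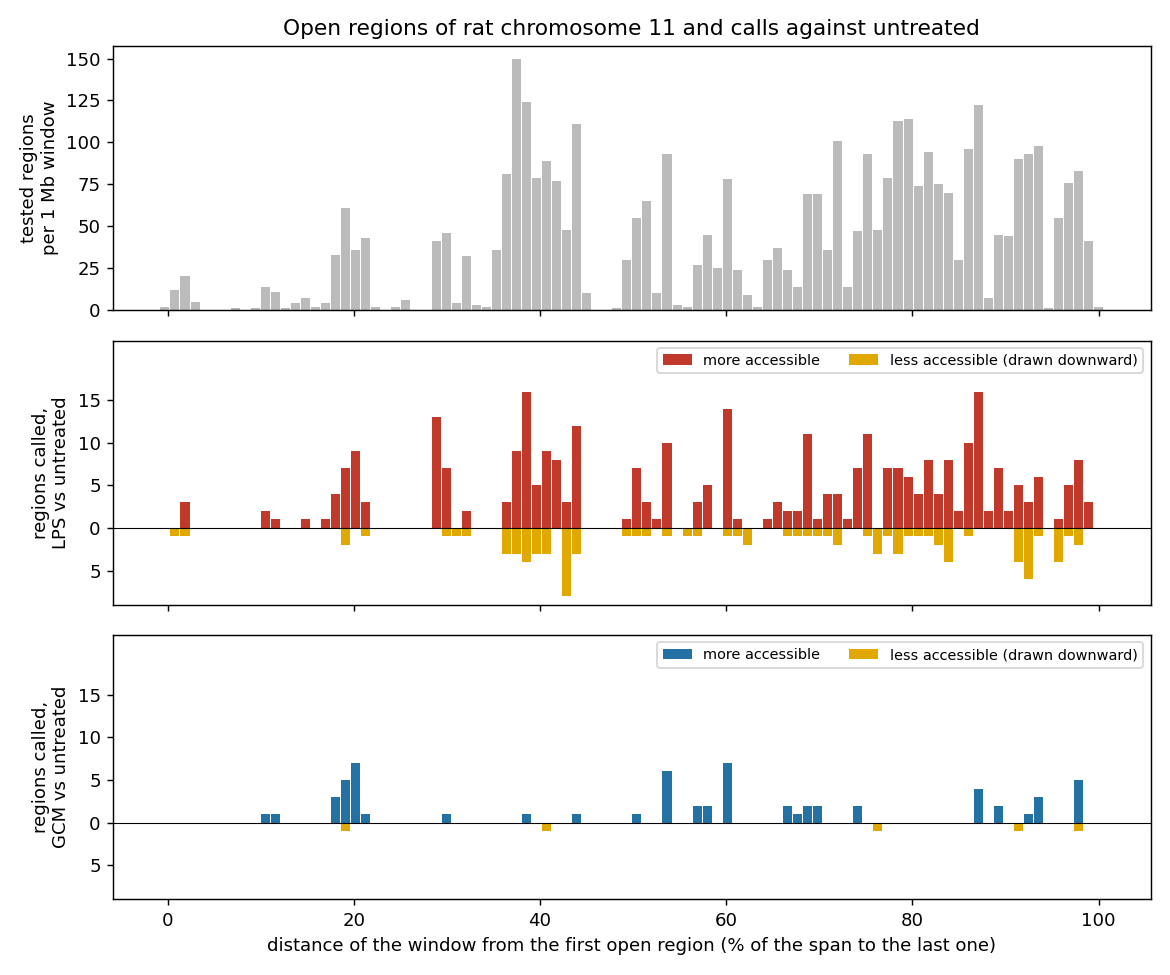
Tested regions per 1 Mb window along chromosome 11 (top) and numbers of regions called against untreated with LPS (middle) and GCM (bottom), more accessible drawn upward and less accessible downward; the horizontal axis is distance from the first open region in percent of the span. LPS calls appear in most windows that hold many regions, while 34 of the 63 GCM increases fall in the windows from 10 to 20 Mb and from 50 to 60 Mb.

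At a finer scale, 62 windows of 1 Mb held at least 10 tested regions each, 3680 in all. LPS opened at least 1 region in 57 of them and closed at least 1 in 42, and 40 had both. Opened and closed regions could be direct neighbours, which was the case for 9 pairs. GCM raised at least 1 region in 24 windows and none in the other 38. Only 3 windows had no LPS call in either direction, namely 33 to 34 Mb with 36 tested regions, 42 to 43 Mb with 10 and 55 to 56 Mb with 25. The windows with the most regions, 35 to 36 Mb with 150.0, 36 to 37 Mb with 124 and 81 to 82 Mb with 122, were not those with the highest shares of calls.

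The window from 27 to 28 Mb had the highest share of regions opened by LPS, 13 of 41 or 31.7%. It was picked for that share, and its neighbouring regions need not be independent, so no interval is given. None of its regions rose with GCM, and 9 of the 41 were lower with GCM than with LPS. Its summed level was 265 and 272 CPM untreated, 303 and 311 CPM with LPS and 287 and 279 CPM with GCM. All 4 stimulated libraries were above the untreated ones, with LPS highest. It was followed by 19 to 20 Mb with 9 of 36 (25.0%), 56 to 57 Mb with 14 of 78 (17.9%), 64 to 65 Mb with 11 of 69 (15.9%) and 83 to 84 Mb with 7 of 45 (15.6%). The 2 Mb window from 26 to 28 Mb, the highest of its size, held the same 41 tested regions. So did the 0.5 Mb window from 27.5 to 28 Mb. Their share of 31.7% is therefore no check of the window size. Among windows of 0.5 Mb the highest share was 31.8% (7 of 22), from 19 to 19.5 Mb. Regions closed by LPS were most frequent between 40 and 41 Mb, at 8 of 48 (16.7%), and GCM increases between 19 and 20 Mb, at 7 of 36 (19.4%).

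Counts summed per window were fitted over the 2007 windows of all chromosomes. With GCM, 14 of the 62 windows of chromosome 11 were higher than untreated and 4 were lower, where the shares over all chromosomes were 9.82% and 4.48%. In all 18 the 4 pairs of libraries had the direction of the call, which the call itself favours. For LPS, as a description only, 9 windows were called higher (5.08% over all chromosomes) and 0 lower (2.84%). Those 9 became 2 without untreated replicate 2, 4 without untreated replicate 1 and 15 without LPS replicate 2, and the 0 became 3 without LPS replicate 1. Between 18 and 20 Mb both windows rose. The one from 19 to 20 Mb had 198 and 179 CPM untreated, 233 and 223 CPM with LPS and 235 and 232 CPM with GCM. The 4 stimulated libraries lay close together above the untreated ones, and the GCM difference was 0.29 ± 0.0593 (log2 ± SE, edgeR adjusted p = 0.00817, n = 2 libraries in each group).

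Between 50 and 60 Mb, 5 windows rose with GCM, led by 56 to 57 Mb. The summed level there was 531 and 507 CPM untreated, 584 and 591 CPM with LPS and 606 and 616 CPM with GCM. GCM was above LPS and LPS above untreated in every library, and the GCM difference was 0.22 ± 0.0315 (log2 ± SE, edgeR adjusted p = 0.0026, n = 2 libraries in each group). Next to it, 57 to 58 Mb had 112 and 117 CPM untreated, 118 and 106 CPM with LPS and 137 and 136 CPM with GCM. LPS overlapped untreated in that window, and both GCM libraries lay above those of the other groups. GCM exceeded untreated by 0.25 ± 0.0766 (edgeR adjusted p = 0.0475), although no single region of the window was called for GCM against untreated. Against LPS the difference of 0.29 did not pass (edgeR adjusted p = 0.110). The largest GCM difference from untreated, 0.38 ± 0.0823 (edgeR adjusted p = 0.0103), was in the window from 63 to 64 Mb with 14 regions. Its level was 92.7 and 89.7 CPM untreated, 99.6 and 89.4 CPM with LPS and 117 and 122 CPM with GCM.

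The 4 windows that fell with GCM lay at 71 to 73 Mb and 89 to 91 Mb. The one from 72 to 73 Mb had 568 and 585 CPM untreated, 582 and 554 CPM with LPS and 525 and 524 CPM with GCM. LPS overlapped untreated, and GCM was below by -0.15 ± 0.0311 (log2 ± SE, edgeR adjusted p = 0.0101, n = 2 libraries in each group). The other 3 differed by -0.11 each (adjusted p from 0.0249 to 0.0404, edgeR). Both LPS libraries were also below both untreated ones from 71 to 72 Mb (log2 difference -0.11) and from 89 to 90 Mb (-0.08). From 90 to 91 Mb LPS overlapped untreated. Together the 4 windows held 258 tested regions and no region that rose with GCM. The 14 that rose held 808 tested regions with 40 of the 63 GCM increases and 110 of the 324 regions opened by LPS. Window counts are sums over these same regions in the same libraries. This favours risen regions in risen windows, so the counts are a description only. Without GCM replicate 2 no window was called, without untreated replicate 2 there were 5, without GCM replicate 1 there were 10, and without either LPS library there were 26. Between GCM and LPS no window passed in edgeR on any chromosome. At an unadjusted p under 0.05, 6 windows of chromosome 11 were higher and 8 lower with GCM than with LPS, and the smallest adjusted p was 0.0832.

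**Figure D4:**
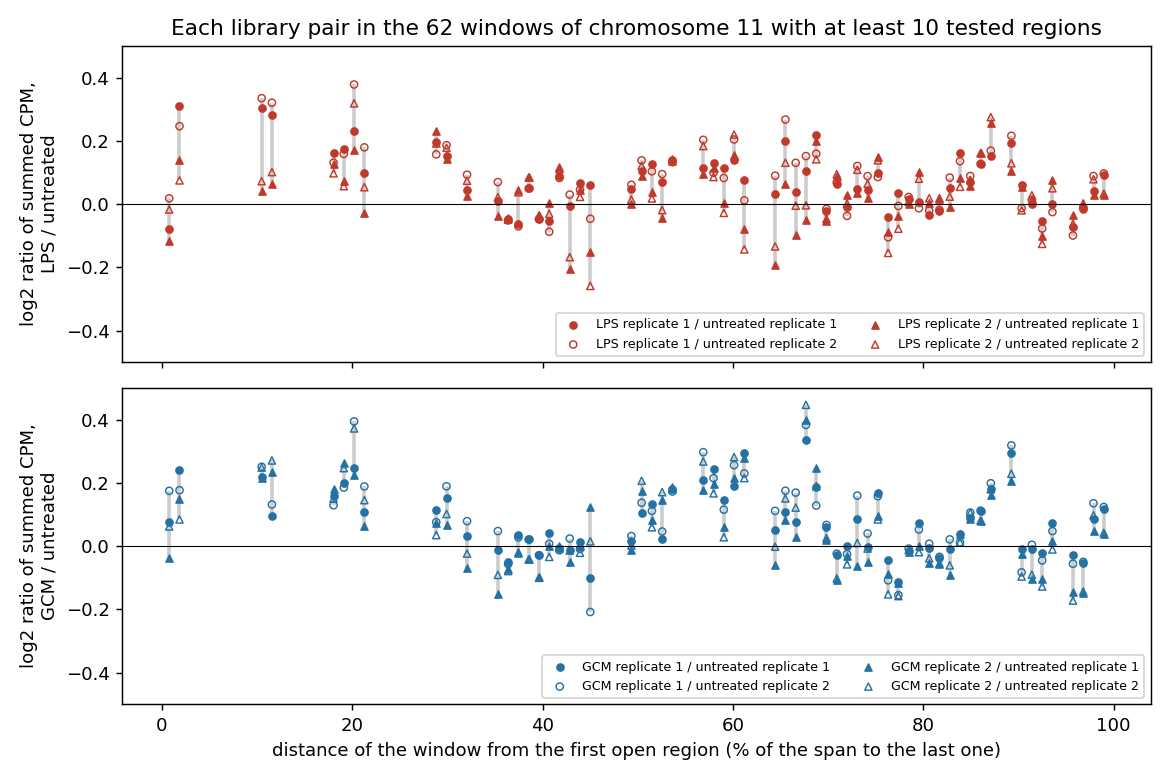
Log2 ratio of the summed CPM of a stimulated to an untreated library in the 62 windows of chromosome 11 with at least 10 tested regions, for LPS (top) and GCM (bottom); each window has 4 points, 1 for each pair of libraries, and the horizontal axis is distance from the first open region in percent of the span. All 4 points lie above 0 in 33 windows for LPS and 31 for GCM and below 0 in 6 and 12; the pairs share libraries and are not independent.

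The regions were also split, after the data were seen, by how many tested regions their window held. On chromosome 11, in windows with under 50 tested regions, 25 of 1026 regions rose with GCM (2.44%), and in windows with 50 or more, 38 of 2727 (1.39%). Over all chromosomes the same shares were 2.31% and 1.08%, and no test was made of these differences. Totals per 10 Mb segment are another measure than regions per window and do not bear on this split. The first 10 Mb and the segment from 20 to 30 Mb had fewer tested regions than that from 10 to 20 Mb. Of their regions, 0 of 41 and 2 of 144 rose with GCM. The segment from 40 to 50 Mb, with 330.0 tested regions against 308 from 50 to 60 Mb, had 2 that rose. The regions of sparse windows on chromosome 11 were narrower, with a median of 345.5 bp against 390.0 bp, and lower in untreated cultures, with medians of 4.03 and 4.06 CPM against 5.46 and 5.33 CPM. Regions opened by LPS made up 9.36% in sparse and 8.36% in dense windows. The parts played by density, width and level in the GCM calls were not tested.

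Neighbouring regions with the same call were taken as runs. Of the 324 regions opened by LPS, 72 (22.2%) lay in 31 runs of 2 or more, against 23.4% over all chromosomes. The longest had 4 regions. One of these, at chr11:27734105-27773476, spanned 39.4 kb of the window with the highest LPS share and had no hotspot in either untreated library. Its summed level was 9.04 and 7.43 CPM untreated, 18.3 and 20.5 CPM with LPS and 8.73 and 10.6 CPM with GCM. GCM overlapped untreated, and at 3 of the 4 regions GCM was below LPS. Another, at chr11:56560390-56621794, had 31.3 and 26.8 CPM untreated, 44.9 and 49.4 CPM with LPS and 39.4 and 41.3 CPM with GCM. GCM lay between the other groups there, and 1 of its 4 regions rose with GCM.

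Of the 63 GCM increases, 19 (30.2%) lay in 8 runs, against 21.97% over all chromosomes. The longest, at chr11:19385960-19401139, had 5 regions in 15.2 kb. Its summed level was 15.9 and 16.7 CPM untreated, 26.0 and 23.0 CPM with LPS and 27.3 and 37.4 CPM with GCM. The groups did not overlap, and GCM replicate 2 was the highest library. Each of the 5 regions rose with GCM, by 0.84 to 1.96 on the log2 scale (adjusted p from 0.00153 to 0.0396, edgeR), 2 were also called higher with LPS, and 1 was higher with GCM than with LPS. A run of 2 regions at chr11:69813431-69815199 had 11.2 and 10.2 CPM untreated, 15.4 and 14.5 CPM with LPS and 21.3 and 20.3 CPM with GCM, again without overlap. At chr11:50743852-50747729 the pair had 3.22 and 2.52 CPM untreated, 7.62 and 6.85 CPM with LPS and 7.86 and 8.36 CPM with GCM, so both stimuli were high and close to each other.

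The authors' deposited tables gave a similar tally for chromosome 11 from their own test of 3778 regions. In the authors' deposited table for LPS, 317 regions were higher (8.39%, against 6.43% of all regions) and 98 lower (2.59%, against 3.33%). In the authors' deposited table for GCM, 74 were higher (1.96%, against 1.49%) and 6 lower (0.159%, against 0.327%). Of the calls described here, 303 of the 324 and 86 of the 88 for LPS, and 60 of the 63 and 5 of the 5 for GCM, were also calls of the authors' deposited tables.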

How the data were processed

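DNase I cut ends were counted in 6 libraries. The authors deposited raw counts of tags per region. The submitters' processing notes name build rn5, edgeR and DiffBind, the read tools Picard 1.95 and SAMtools, the aligner Bowtie 1.1.2 and the trimmer cutadapt 1.8.3, and their order and settings are not given in the sources used here. Per the file headers, the authors' comparison tables give log2 fold changes, a likelihood ratio score, p-values and CPM. The authors' CPM are relative to whole libraries, and the CPM per base of single libraries follow another order than their lines and were not used. The score in the deposited hotspot lists is the authors', is not defined and was not used beyond the intervals.

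Counts of all regions were fitted in edgeR 4.0.16 (R 4.3.3), quasi-likelihood, all 6 libraries in 1 fit of group means, minimum count 10, TMM scaling (factors 0.986 to 1.01), Benjamini-Hochberg adjustment over 126284 regions, threshold 0.05, two-sided. This was tested on simulated data. The SE is the log2 fold change divided by the square root of F. CPM used here are relative to the TMM-scaled total of counts in regions. Windows are 1 Mb with at least 10 tested regions. Positions count from 1. Summaries used Python 3.11.15, pandas 2.3.3, numpy 2.4.6, scipy 1.17.1 and matplotlib 3.10.9.

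Named for LPS and GCM were the 10 higher and 5 lower regions of smallest p, and 5 each way for GCM against LPS, with adjusted p under 0.05 and groups that did not overlap; also the region of highest CPM, the widest, the first and last regions, the windows with the highest shares and the longest runs. The members, lists and windows were chosen with earlier results of these data known, and the 10 Mb segments and the density of 50 regions per window were looked at after seeing the data. Alternatives were other scalings (DESeq2 1.42.0 size factors, totals in regions, whole-library totals, within chromosome 11), other count minimums, the likelihood ratio test, DESeq2, only the 4 libraries compared, a replicate block, only regions with a hotspot in all 6 lists, other window sizes and leaving out each library.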

Additional observations from a re-analysis of the deposited data

How the results depend on the processing

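With 2 libraries per group, the number of called regions depended on the processing, and the cause was not tested. DESeq2 gave 27 higher and 0 lower for LPS, 0 and 0 for GCM, and 2 and 15 for GCM against LPS. Whole-library totals gave 11 lower for LPS, 14 higher and 0 lower for GCM, and 28 higher for GCM against LPS, and scaling within chromosome 11 gave 141 lower for LPS. The likelihood ratio test gave 96 and 10 for GCM, and the fit of only 4 libraries gave 8 lower. With fewer regions, those with a hotspot in all 6 lists, there were 114 and 29 for LPS, 28 and 2 for GCM, and 56 and 51 for GCM against LPS. Replicate numbers were shared only as numbers: deviations of same-numbered libraries correlated by 0.0484 (untreated and LPS), 0.100 (untreated and GCM) and 0.000999 (LPS and GCM), and the replicate block gave 101 and 16 for GCM, 368 and 124 for LPS, 197 and 226 for GCM against LPS and 3 windows for GCM against LPS. Leaving out 1 library gave 126 to 331 higher and 17 to 103 lower for LPS, 0 to 89 and 0 to 9 for GCM, and 45 to 136 and 84 to 195 for GCM against LPS. Windows called ranged from 0 to 26 for GCM and from 0 to 6 for GCM against LPS, where 0.5 Mb windows gave 5 and 2 Mb windows 1. No region named for a call changed direction in these alternatives; the regions named for level, width or position were not run through them. The median of 35 to 64 counts per region limits how small a difference can be called.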
